A study of Mus musculus with 6 samples.

Results

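The cytotoxic and NK cell genes described here are 10 mouse genes taken by symbol from the table of raw gene counts, out of 55401 genes in all: Gzma, Gzmb, Gzmk, Prf1, Nkg7, Klrd1, Klrk1, Klrb1c, Ncr1 and Eomes. All 10 matched a row, and all 10 had enough counts to be tested between the strains. RNA was measured in CD11b-selected cells from the brains of untreated mice aged 6 weeks, with 3 libraries from MRL/lpr mice, which carry the lpr mutation of Fas throughout the body, and 3 from MRL/mpj mice, the same background without it. CD11b is carried by microglia and other myeloid cells, and also by many NK cells and some activated T cells, so the selection does not by itself remove cytotoxic lymphocytes. The labels do not say whether libraries of a strain came from separate animals, so p-values measure only the spread between these libraries.

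NK cells and cytotoxic T cells kill target cells by releasing granules. Perforin opens the target membrane, and granzymes, a family of serine proteases, enter and cut proteins inside. NK cells decide whether to kill by weighing activating receptors such as NKG2D and NKp46 against inhibitory receptors that recognise MHC class I molecules, and many of these receptors are lectin-like proteins encoded side by side in the NK gene complex. Resident microglia are not a usual source of these transcripts. In lupus-prone mice, T cells and other lymphocytes are known to gather in the choroid plexus and meninges. The study's authors state that their earlier work found no cells infiltrating the MRL/lpr brain at about the age used here. They place the entry of T and B cells at a later stage of disease.

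Counts per library ran from 45481609 to 49846634. Counts piled up at multiples of 4, with between 1138 and 1288 genes per library at 4 counts against between 211 and 261 at 5 counts, as if a read pair added 4 counts at once, and the low counts below then rest on fewer pairs than their size gives. Libraries of a strain differed by 2.16 to 4.28 times the variance of sampling noise, with the noise itself counted in pairs of 4 counts. MRL/lpr replicate 3 stood apart, with 6.38% of its counts in the single gene CT010467.1 against at most 0.457% elsewhere, and mitochondrial genes took 3.06% to 3.49% of the MRL/lpr counts and 5.84% to 6.38% of the MRL/mpj counts. Fas had 461, 282 and 298 counts in MRL/lpr and 426, 432 and 362 counts in MRL/mpj (log2 fold change -0.06, edgeR adjusted p = 0.887). These counts overlapped and so do not check the labels, and a gene count does not separate the mutant from the intact transcript. The microglial marker Tmem119 was abundant in each library, at a mean of 885 FPKM (fragments scaled by gene length and library size) in MRL/lpr and 1000 FPKM in MRL/mpj.

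Of the 10 genes, 6 rose in the MRL/lpr libraries and none fell. The test was the quasi-likelihood test of edgeR, Benjamini-Hochberg adjusted over 19554 genes, at an adjusted p-value under 0.05. Among all genes tested, 11.1% rose and 9.06% fell by the same rule. The 6 genes were Gzma, Gzmb, Gzmk, Prf1, Nkg7 and Eomes, which encode granule proteins and a transcription factor. Of these, Gzmk entered the test through the MRL/lpr libraries alone, so a difference was built into its selection. It could not be tested with counts divided by 4, where 5 genes rose. All 6 also had a log2 fold change of at least 1, a rule that 4.67% of all genes met as higher and 3.66% as lower. The 4 genes that did not pass were Klrd1, Klrk1, Klrb1c and Ncr1, which encode surface receptors. The median log2 fold change of the 10 genes was 1.96, or 1.88 with Gzmk at its lower bound, against -0.01 over all genes tested. In bulk RNA, fewer cells of a type and less RNA per cell cannot be told apart.

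**Figure D1:**
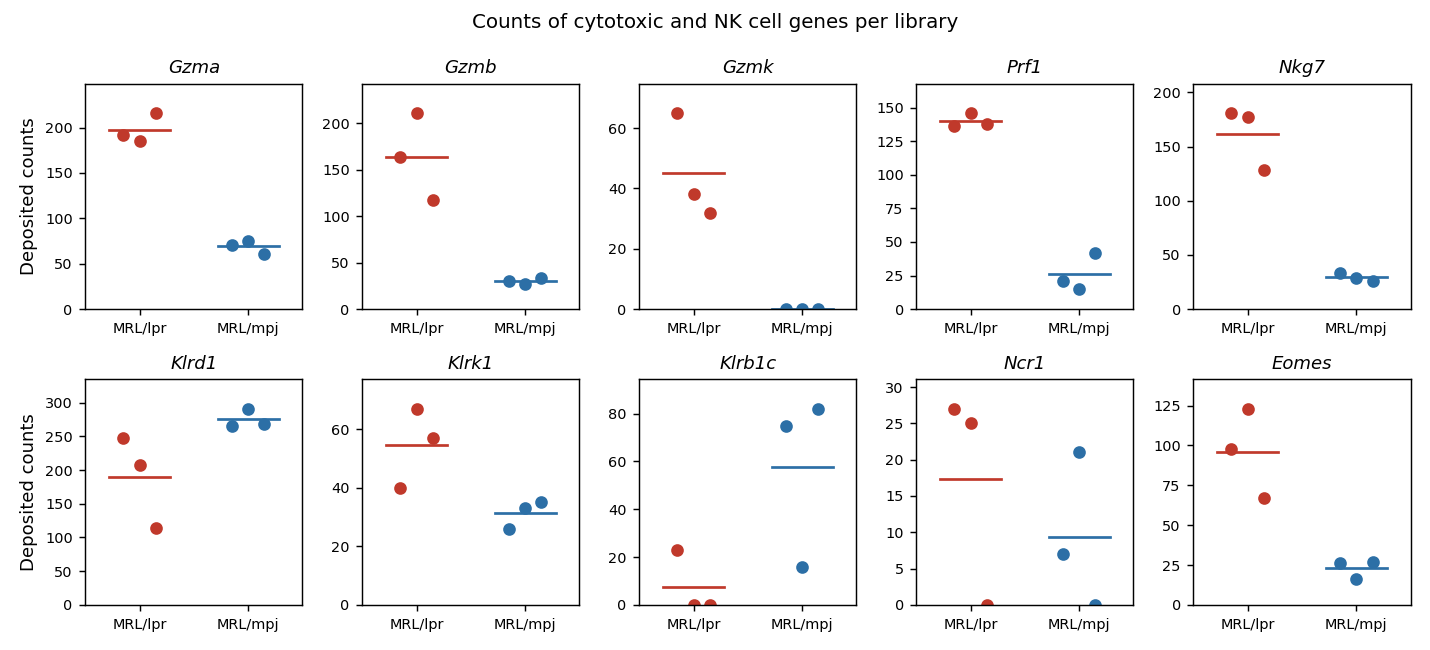
Deposited counts (linear axes from 0, 1 panel per gene) in the 3 MRL/lpr (red) and 3 MRL/mpj (blue) libraries, each point a library and each bar a mean. Gzma, Gzmb, Gzmk, Prf1, Nkg7 and Eomes sit higher in each MRL/lpr library, as does Klrk1, which did not pass the test. On the CPM scale, 19.6% of all genes tested lay above in this way. Klrd1 reaches 291 counts in MRL/mpj, and Klrb1c and Ncr1 have libraries at 0.

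Gzma (ENSMUSG00000023132, chr13:113093825-113100981) encodes granzyme A, a protease with trypsin-like specificity. It had 192, 185 and 216 counts in MRL/lpr and 71, 75 and 61 counts in MRL/mpj. Scaled by TMM, this was 4.39 ± 0.675 CPM (counts scaled to library size, SD, n = 3) against 1.35 ± 0.166 CPM (SD, n = 3). The groups did not overlap, as in 19.6% of all genes with MRL/lpr above, and MRL/lpr replicate 3 was the highest library. The log2 fold change was 1.70 (standard error, SE, 0.25, edgeR adjusted p = 0.00119), the smallest of the 6 increases.

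Gzmb (ENSMUSG00000015437, chr14:56258838-56262260) encodes granzyme B, which cuts after aspartate and triggers apoptosis. Its counts were 164, 211 and 117 in MRL/lpr and 30, 27 and 34 in MRL/mpj. The lowest MRL/lpr library, replicate 3, still lay well above each MRL/mpj library. The mean was 3.59 ± 0.846 CPM (SD, n = 3) against 0.592 ± 0.0572 CPM (SD, n = 3), a log2 fold change of 2.59 (SE 0.31, edgeR adjusted p = 0.000333).

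Gzmk (ENSMUSG00000042385, chr13:113171608-113225908) encodes granzyme K, a neighbour of Gzma on chromosome 13 and in T cells a marker of some effector and memory CD8+ cells. It had 65, 38 and 32 counts in MRL/lpr and 0 counts in each MRL/mpj library. It entered the test through the MRL/lpr libraries alone, so a difference was built into its selection. A count of 0 was taken to allow up to 3 read pairs, or 12 counts, per library, which makes Gzmk at least 4.20-fold higher in MRL/lpr. Its adjusted p was 0.0018 from edgeR.

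Prf1 (ENSMUSG00000037202, chr10:61297833-61304680) encodes perforin. It had 136, 146 and 138 counts in MRL/lpr, the closest agreement between libraries of the 10 genes, and 21, 15 and 42 counts in MRL/mpj. The log2 fold change was 2.61 (SE 0.40, edgeR adjusted p = 0.00158). Nkg7 (ENSMUSG00000004612, chr7:43437073-43438249) encodes a granule membrane protein needed for granule release. It had 181, 177 and 128 counts in MRL/lpr and 33, 29 and 26 in MRL/mpj, and rose by 2.63 on the log2 scale (SE 0.29, edgeR adjusted p = 0.000211). The means of Prf1 and Nkg7 were 6.13 and 6.20 times higher in MRL/lpr on the CPM scale, close to the 6.06 of Gzmb and above the 3.25 of Gzma. Whether these ratios differ from each other was not tested.

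Eomes (ENSMUSG00000032446, chr9:118478212-118486132) encodes a T-box transcription factor that NK cells and memory CD8+ T cells need. It had 98, 123 and 67 counts in MRL/lpr and 26, 16 and 27 counts in MRL/mpj, or 2.10 ± 0.505 CPM (SD, n = 3) against 0.448 ± 0.111 CPM (SD, n = 3). Even the lowest MRL/lpr library was above the highest MRL/mpj library. The log2 fold change was 2.22 (SE 0.39, edgeR adjusted p = 0.00318). An antisense gene that shares 118 exon bases with Eomes had 0 counts in each library.

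The promoters of the 6 genes that rose are shown. RefSeq sequences (GRCm38.p6, from 250 bases before to 50 after the start) were given for 9 of the 10 genes. The RefSeq start can differ from the start of the gene span given above. The Gzmk window lies inside its gene span, and the Gzmb window lies wholly outside its span. T-box factors such as Eomes, RUNX factors and ETS factors are known to act on cytotoxic genes. The promoters were searched on both strands for the exact letters GGTGTGA (T-box), TGTGGTT (RUNX) and AGGAAGT (ETS), which do not overlap each other in these promoters. The 6 sequences follow, 5′ to 3′ in the direction of transcription, with each match in capitals.
Gzma, chr13:113100932-113101231, minus strand: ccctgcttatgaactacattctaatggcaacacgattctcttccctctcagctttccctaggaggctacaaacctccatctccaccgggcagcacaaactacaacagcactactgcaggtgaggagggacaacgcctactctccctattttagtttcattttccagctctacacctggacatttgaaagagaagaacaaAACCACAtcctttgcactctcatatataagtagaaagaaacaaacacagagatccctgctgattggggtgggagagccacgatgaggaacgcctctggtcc
Gzmb, chr14:56262285-56262584, minus strand: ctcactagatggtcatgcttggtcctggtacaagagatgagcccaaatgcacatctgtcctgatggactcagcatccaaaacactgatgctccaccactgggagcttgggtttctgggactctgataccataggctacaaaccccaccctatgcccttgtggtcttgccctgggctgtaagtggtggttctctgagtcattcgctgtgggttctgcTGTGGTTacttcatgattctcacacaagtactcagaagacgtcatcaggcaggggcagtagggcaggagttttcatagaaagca
Gzmk, chr13:113180916-113181215, minus strand: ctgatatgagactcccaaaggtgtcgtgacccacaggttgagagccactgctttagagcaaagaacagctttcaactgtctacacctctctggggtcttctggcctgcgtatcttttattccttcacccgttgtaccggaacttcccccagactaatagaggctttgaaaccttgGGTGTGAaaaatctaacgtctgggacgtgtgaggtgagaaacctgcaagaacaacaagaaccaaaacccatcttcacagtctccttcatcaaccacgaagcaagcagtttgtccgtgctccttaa
Prf1, chr10:61297586-61297885, plus strand: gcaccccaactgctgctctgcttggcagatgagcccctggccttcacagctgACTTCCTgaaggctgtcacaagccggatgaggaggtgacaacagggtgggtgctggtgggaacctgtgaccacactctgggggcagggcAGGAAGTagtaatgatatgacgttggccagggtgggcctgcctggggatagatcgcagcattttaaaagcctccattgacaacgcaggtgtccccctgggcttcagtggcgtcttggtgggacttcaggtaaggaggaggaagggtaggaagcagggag
Nkg7, chr7:43436888-43437187, plus strand: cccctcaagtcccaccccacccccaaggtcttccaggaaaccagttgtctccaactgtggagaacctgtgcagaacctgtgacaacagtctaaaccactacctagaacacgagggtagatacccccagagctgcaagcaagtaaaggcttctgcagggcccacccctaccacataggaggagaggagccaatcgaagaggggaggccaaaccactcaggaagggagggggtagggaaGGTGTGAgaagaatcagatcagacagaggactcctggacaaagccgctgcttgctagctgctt
Eomes, chr9:118477939-118478238, plus strand: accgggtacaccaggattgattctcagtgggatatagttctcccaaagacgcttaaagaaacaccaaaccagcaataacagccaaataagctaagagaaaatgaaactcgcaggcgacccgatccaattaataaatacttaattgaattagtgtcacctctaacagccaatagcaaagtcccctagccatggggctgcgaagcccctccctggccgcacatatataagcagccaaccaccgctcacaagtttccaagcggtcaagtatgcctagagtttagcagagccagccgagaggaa
The RUNX letters occurred in 4 of the 9 promoters (Gzma, Gzmb, Klrk1 and Ncr1), against 5.27% of 32851 promoters of the same length. The T-box letters occurred in 2 of the 9 (Gzmk and Nkg7), against 3.98%, and the ETS letters in 1 of the 9 (Prf1, at 2 places), against 9.35%. None of the 3 motifs was found in the promoters of Eomes, which rose, and Klrb1c. These matches describe letters in a window, and Klrk1 and Ncr1, which hold the RUNX letters, did not pass the test between strains.

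Klrd1, Klrk1 and Klrb1c lie in the NK gene complex on chromosome 6. Klrd1 (ENSMUSG00000030165, chr6:129591782-129598775) encodes CD94, which pairs with NKG2 proteins to form receptors for a nonclassical MHC class I molecule. It had 248, 207 and 114 counts in MRL/lpr and 266, 291 and 269 in MRL/mpj. On the CPM scale the libraries overlapped, at 5.28, 4.40 and 2.73 CPM against 5.18, 5.82 and 5.17 CPM. The log2 fold change was -0.38 (SE 0.25, edgeR adjusted p = 0.354). Klrd1 thus supplied between 46.7% and 55.6% of the counts of the 10 genes in each MRL/mpj library and between 13.1% and 21.1% in each MRL/lpr library.

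Klrk1 (ENSMUSG00000030149, chr6:129610323-129623864) encodes NKG2D, an activating receptor for stress-induced ligands on NK cells and CD8+ T cells. Its counts were 40, 67 and 57 in MRL/lpr and 26, 33 and 35 in MRL/mpj. Each MRL/lpr library was above each MRL/mpj library, but the log2 fold change of 0.98 (SE 0.42) did not pass, at an edgeR adjusted p of 0.144. Ncr1 (ENSMUSG00000062524, chr7:4337724-4345164) encodes NKp46, an activating receptor that marks NK cells and some innate lymphoid cells. It had 27, 25 and 0 counts in MRL/lpr and 7, 21 and 0 counts in MRL/mpj. Both strains had a library at 0, and the log2 fold change of 0.99 (SE 1.46, edgeR adjusted p = 0.708) was smaller than its error.

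Klrb1c (ENSMUSG00000030325, chr6:128778485-128789215) encodes NK1.1, an activating receptor of the NKR-P1 family. It had 23, 0 and 0 counts in MRL/lpr and 75, 16 and 82 in MRL/mpj. The libraries overlapped, and the log2 fold change was -2.74 (SE 1.39, edgeR adjusted p = 0.232). Without MRL/lpr replicate 1, the MRL/lpr library with counts, the remaining MRL/lpr libraries were at 0 and the adjusted p was 0.00938. Klrb1c shares 413 exon bases with a same-strand gene, Gm44511, which had at most 9 counts in a library. Klrb1c also has close relatives in the complex. Whether its reads were split by the authors' counting was not tested.

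**Figure D2:**
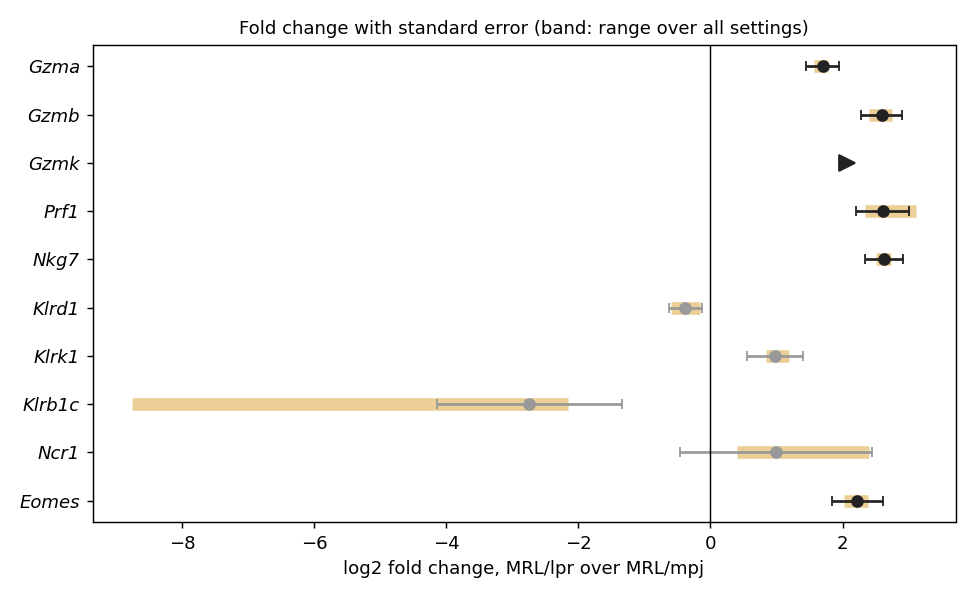
Log2 fold change of MRL/lpr over MRL/mpj for each gene with its standard error (points and bars, black where the adjusted p is under 0.05), with the range over all settings as a band; for Gzmk the triangle is the lower bound of 2.07. Gzma, Gzmb, Prf1, Nkg7 and Eomes keep to 1.57 and above, and the lower end of the Klrb1c band comes from a fit with MRL/lpr at 0 and is not a bound.

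Per length, the 10 genes were low in both strains. In MRL/lpr the order of mean FPKM was Gzma (3.71), Nkg7 (3.32), Klrd1 (2.76), Gzmb (2.14), Prf1 (1.02), Gzmk (0.593), Eomes (0.433), Ncr1 (0.200), Klrk1 (0.140) and Klrb1c (0.0467). The first 4 overlapped their neighbours in this order, Gzmb lay above Prf1 and Prf1 above Gzmk in each library, and Gzmk overlapped Eomes. In MRL/mpj, Klrd1 came first at 3.88 ± 0.269 FPKM (SD, n = 3), above Gzma at 1.24 ± 0.151 FPKM (SD, n = 3) in each library. Nkg7 at 0.580 and Gzmb at 0.377 FPKM followed without overlap between them, and from Gzmb to Klrk1 each gene overlapped the next. Klrk1 has annotated exons over 7183 bases, which lowers its value per length. Klrd1 was thus the most abundant of these transcripts in MRL/mpj and the third in MRL/lpr.

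**Figure D3:**
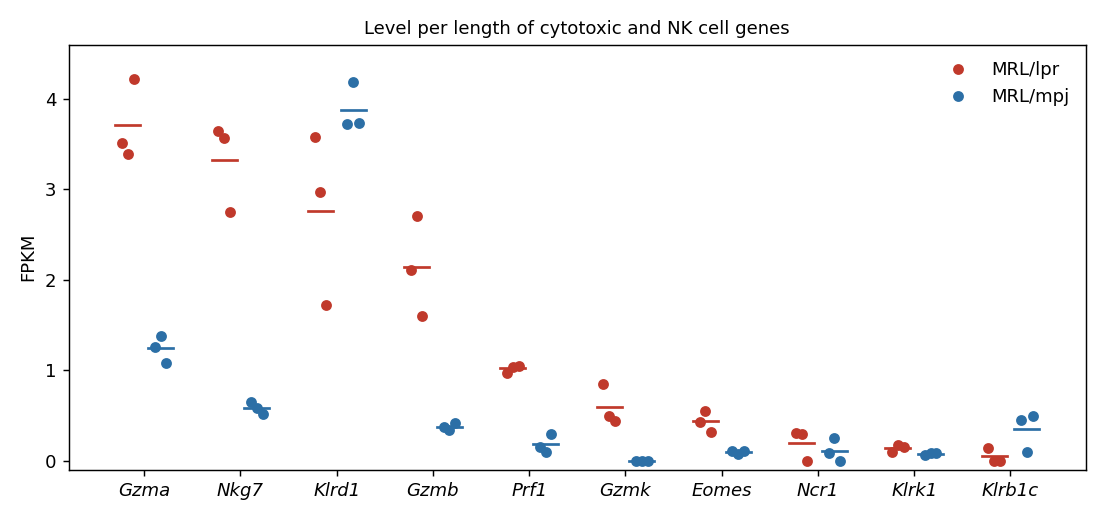
Deposited FPKM (linear axis) of each gene in the 3 MRL/lpr (red) and 3 MRL/mpj (blue) libraries, ordered by the MRL/lpr mean, which is the bar. Klrd1 stands highest in MRL/mpj at 3.88 FPKM, while Gzma leads in MRL/lpr at 3.71 FPKM.

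Related genes of the killing pathway were read from the same fit. Among 29 further killer cell receptor genes, 9 had 0 counts in each library (Klra1, Klra5, Klra6, Klra7, Klra8, Klra9, Klra10, Klrb1 and Klrc3), and 12 were tested. A count of 0 does not separate a gene without expression from a gene absent from these strains or with reads that could not be mapped. Of the 12 tested, 3 rose, 1 fell and 8 did not pass, where 11.1% of all genes tested rose and 9.06% fell. Klrc1, which encodes the inhibitory NKG2A chain that pairs with CD94, had 42, 65 and 44 counts in MRL/lpr and 4, 0 and 8 in MRL/mpj (edgeR adjusted p = 0.0151). Whether Klrc1 changed by another amount than its partner Klrd1 was not tested. Klrc1 passed the filter on low counts through MRL/lpr alone, so a difference was built into its selection. Without MRL/lpr replicate 2 or MRL/mpj replicate 1 its adjusted p was above 0.05, and it reached 0.0626. Crtam, which holds cytotoxic lymphocytes in contact with other cells, rose by 1.69 on the log2 scale (SE 0.24), from 144, 121 and 102 to 421, 271 and 353 counts. Tigit, an inhibitory receptor of T and NK cells, had 43, 32 and 68 counts against 3, 0 and 11, and its call was lost without any 1 of the MRL/lpr libraries or MRL/mpj replicate 1, with an adjusted p of up to 0.106. Klrb1b, an inhibitory relative of Klrb1c in the same cluster, was the gene that fell, from 36, 64 and 59 counts in MRL/mpj to 0, 0 and 4 in MRL/lpr (edgeR adjusted p = 0.00961). Klrb1b passed the filter through MRL/mpj alone, so its difference too was built into the selection. It shares 599 exon bases with Gm44511, and too few counts were left to test it once counts were divided by 4. Slamf7 and Cd244a, with high counts in this list, had log2 fold changes of 0.44 and 0.27 and did not pass.

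Of 14 adaptor and kinase genes tested out of 16, 4 rose and 1 fell, against 11.1% and 9.06% of all genes tested. Lck, the kinase of T cell receptor signalling that NK cells also use, rose from 97, 97 and 96 counts to 282, 251 and 311 (log2 fold change 1.72, SE 0.22). Syk and Fyn, which myeloid cells also carry, rose by 0.38 and 0.44. The call of Fyn was lost in 5 fits without 1 library, all but the one without MRL/mpj replicate 3, with an adjusted p of up to 0.142. Scaling by library size only also ended the call of Fyn. Tyrobp (DAP12), the adaptor of activating NK receptors and an abundant microglial gene, fell by 0.35, from 355 ± 31.6 to 279 ± 22.1 CPM (SD, n = 3). Its call was lost in 4 fits without 1 library (MRL/lpr replicates 1 and 2, MRL/mpj replicates 1 and 2), and its adjusted p reached 0.0833. Vav1 and Plcg2, also among the most abundant, had log2 fold changes of 0.08 and 0.21 and did not pass. Hcst (DAP10), the partner of NKG2D, had 138, 148 and 211 counts against 131, 189 and 139, with overlap.

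Of 19 granule and secretion genes, 13 were tested, 4 rose and none fell, against 11.1% and 9.06% of all genes tested. Ctsw, a protease of NK and CD8+ T cells, rose from 48, 29 and 37 counts to 111, 105 and 116 (log2 fold change 1.72, SE 0.33, edgeR adjusted p = 0.00504). Srgn, the proteoglycan that packs granules in lymphoid and myeloid cells, rose by 1.20 (SE 0.08). Unc13d, which primes granules for fusion, and Lyst, a regulator of granule size, rose by 0.59 and 0.40. The lysosomal genes Lamp1 and Ctsc, the protease that activates granzymes, had log2 fold changes of -0.11 and -0.25 and did not pass. Gzmm had 45, 12 and 20 counts against 37, 39 and 13, with overlap. The granzyme genes Gzmc, Gzmf, Gzmg and Gzmn had 0 counts in each library, and Gzmd and Gzme at most 4.

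Of 19 lineage factor and cytokine receptor genes tested out of 20, 7 rose and none fell. Among all genes tested, 11.1% rose and 9.06% fell. Runx3, a factor of CD8+ T cells and NK cells, had 167, 140 and 185 counts in MRL/lpr and 29, 30 and 33 in MRL/mpj, with a log2 fold change of 2.60 (SE 0.29, edgeR adjusted p = 0.000251). Il2rb, the receptor chain for IL-2 and IL-15 that NK cells depend on, rose by 2.05, and Nfil3, an early NK lineage factor with wider roles, by 0.63. Ikzf3, Il15ra, Il18rap and Zeb2 rose by 1.54, 0.65, 0.78 and 0.33. The calls of these 4 were lost in 4, 4, 3 and 6 of the 6 fits without 1 library, with adjusted p-values of up to 0.146, 0.148, 0.0969 and 0.165. Ikzf3 was lost without MRL/lpr replicates 1 and 2 and MRL/mpj replicates 1 and 3, Il15ra without MRL/lpr replicates 1 and 2 and MRL/mpj replicates 1 and 2, Il18rap without MRL/lpr replicate 2 and MRL/mpj replicates 1 and 2, and Zeb2 without any 1 of the 6. Scaling by library size alone also ended all 4 calls. Tbx21 (T-bet), the T-box partner of Eomes, had 25, 81 and 29 counts against 30, 12 and 0 and overlapped. Id2 and Ets1, also abundant in this list, had log2 fold changes of 0.75 and 1.62 and did not pass (edgeR adjusted p = 0.255 and 0.0675).

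Ligands of these receptors were measured too. Of 17 listed, 14 matched a row, 8 were tested, 2 rose and none fell, where 11.1% of all genes tested rose and 9.06% fell. H2-T23, which encodes Qa-1, the ligand of CD94 with NKG2A, rose from 47.2 ± 2.70 to 157 ± 3.94 CPM (SD, n = 3), a log2 fold change of 1.73 (SE 0.07, edgeR adjusted p = 8.65e-07). Pvr, a ligand of Tigit, rose by 0.60. Ulbp1, a ligand of NKG2D and the most abundant one here, had a log2 fold change of 0.02. Nectin2 and Cd48 had values of -0.18 and 0.08 and did not pass. Of 10 effector cytokine genes, 9 were tested, 6 rose and none fell. Fasl, the ligand of Fas and an effector of killing, had 38, 64 and 16 counts in MRL/lpr and 0, 4 and 0 in MRL/mpj. It entered the test through MRL/lpr alone and could not be tested with counts divided by 4, and its call was lost without MRL/lpr replicate 2, MRL/mpj replicate 1 or MRL/mpj replicate 3, with an adjusted p of up to 0.0993. Tnf, Ccl3 and Ccl4, which activated microglia also make, rose by 1.30, 0.98 and 0.36, and Tnfsf10 (TRAIL) and Ccl5 by 0.68 and 0.64. The call of Ccl5 was lost without MRL/lpr replicate 2, MRL/mpj replicate 1 or MRL/mpj replicate 2, with an adjusted p of up to 0.0636. Ifng, the main cytokine of NK and T cells, had 64, 71 and 26 counts against 5, 26 and 31, and its log2 fold change of 1.52 did not pass (edgeR adjusted p = 0.159).

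**Figure D4:**
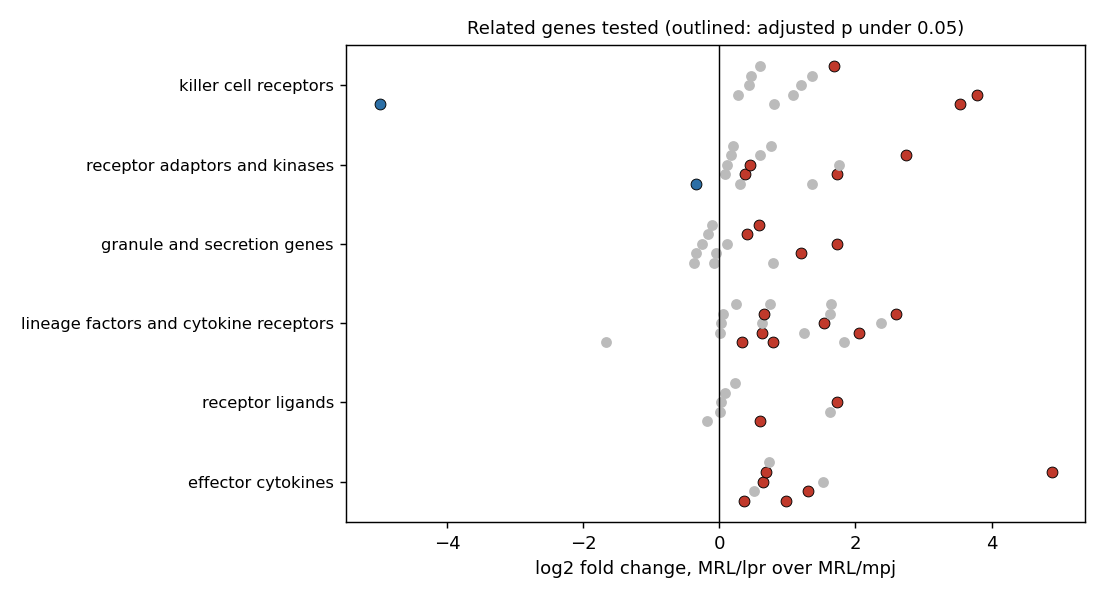
Log2 fold change of MRL/lpr over MRL/mpj for each related gene tested, 1 point per gene in 6 lists, with outlined points at an adjusted p under 0.05 (red higher, blue lower) and grey points above it; vertical position within a list has no meaning. Klrb1b and Tyrobp are the 2 outlined points below 0, and Srgn, Runx3 and Il2rb are among those above 1.

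Markers of other cells that carry cytotoxic genes were read beside them. Of 15 T cell markers, 13 were tested, 11 rose and none fell, where 11.1% of all genes tested rose and 9.06% fell. Among the 11 were Cd3e and Cd8b1, which passed the filter through MRL/lpr alone, so a difference was built into their selection. The summed level of the T cell markers was 26.2 to 34.3 CPM in the MRL/lpr libraries and 7.65 to 8.26 CPM in the MRL/mpj libraries, 3.76 times higher on average. The 10 cytotoxic and NK cell genes summed to 20.8 to 25.0 CPM against 10.5 to 11.1 CPM, 2.19 times higher. Klrd1, which did not pass, weighs on the second ratio, with means of 4.13 CPM in MRL/lpr and 5.39 CPM in MRL/mpj. Each of the 6 genes that rose had a higher ratio, with Gzma lowest at 3.25. Whether the 2 sums rose by different amounts was not tested. Cd8a, a coreceptor of cytotoxic T cells, had 159, 127 and 107 counts against 16, 16 and 27 (log2 fold change 2.90, SE 0.36). Cd8b1 had 70, 77 and 28 counts against 0 in each MRL/mpj library, at least 5.39-fold higher. Cd3e, a chain of the T cell receptor complex that NK cells lack on their surface, had 103, 92 and 120 counts against 2, 0 and 9. Cd3g, Cd4, Cd28, Lat, Trbc2, Trbc1, Trac and Cd2 also rose, with log2 fold changes between 1.60 and 3.35. Without 1 library, the call of Trac was lost for MRL/lpr replicates 1 and 3 and MRL/mpj replicate 1 (adjusted p up to 0.0879), that of Trbc1 for these and MRL/mpj replicate 3 (up to 0.0784), and that of Cd2 for MRL/lpr replicate 1 and MRL/mpj replicates 2 and 3 (up to 0.0659). Cd3d and Cd5 had log2 fold changes of 1.22 and 0.62 and did not pass (edgeR adjusted p = 0.0501 and 0.215). Tcrg-C1 was at 0 in each library. The part of T cells in the rise of the cytotoxic genes was not tested.

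For each marker list below, the shares over all genes tested were 11.1% that rose and 9.06% that fell. Mast cells and basophils can also carry granzyme B. Of their 7 markers, 3 were tested, 1 rose and none fell, and the summed level was 2.58 to 3.80 CPM in MRL/lpr and 1.70 to 3.29 CPM in MRL/mpj, with overlap. The gene that rose, Tpsb2, had 15, 17 and 12 counts against 0 in each MRL/mpj library. It was tested through MRL/lpr alone, and no fit without 1 library called it. Kit and Mcpt8 had log2 fold changes of -0.08 and -0.18 and did not pass. Fcer1a had 6 counts in 1 library and 0 in the other 5. None of 5 B cell markers tested out of 6 passed, and their sum was 14.3 to 15.2 CPM against 11.1 to 14.98 CPM. The most abundant of these, Cd79b and Cd22, had log2 fold changes of -0.30 and 0.15, and Cd79a had 1.57 (edgeR adjusted p = 0.0516). Of 7 neutrophil markers, S100a8, Ngp and Retnlg rose by 0.36, 0.40 and 0.36, and the sum was 579 to 659 CPM against 451 to 510 CPM. The call of S100a8 was lost without MRL/lpr replicate 1, MRL/mpj replicate 2 or MRL/mpj replicate 3 (adjusted p up to 0.136), and that of Retnlg without MRL/lpr replicate 1 or 2 or MRL/mpj replicate 1 or 3 (up to 0.159). Retnlg was also lost with DESeq2 (0.0524), without robust fitting, and with each other filter, and both calls were lost with scaling by library size only (0.189 for Retnlg and 0.102 for S100a8). S100a9 had a log2 fold change of 0.21 and did not pass. Of 5 monocyte markers, Plac8 and Vcan rose by 2.22 and 0.96 and none fell, with sums of 549 to 636 CPM against 515 to 544 CPM. Vcan was lost without MRL/lpr replicate 2 or 3 or MRL/mpj replicate 2 or 3, with an adjusted p of up to 0.0694. Fn1 and Ly6c2, the most abundant of this list, had values of 0.09 and 0.39 and did not pass. Of 12 microglia markers, 4 fell and none rose, with Fcrls, Gpr34 and Sparc falling by 1.76, 0.48 and 0.39, and the sum was 26964 to 29780 CPM against 32171 to 33094 CPM. Csf1r, the most abundant, had a log2 fold change of 0.07. Cx3cr1, also in the sum, had 10645, 132706 and 10334 counts in MRL/lpr and 28995, 27912 and 29349 in MRL/mpj. For this gene MRL/lpr replicate 2 lay far above each other library, which raises its sum. The part of these cells in the result was not tested either.

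**Figure D5:**
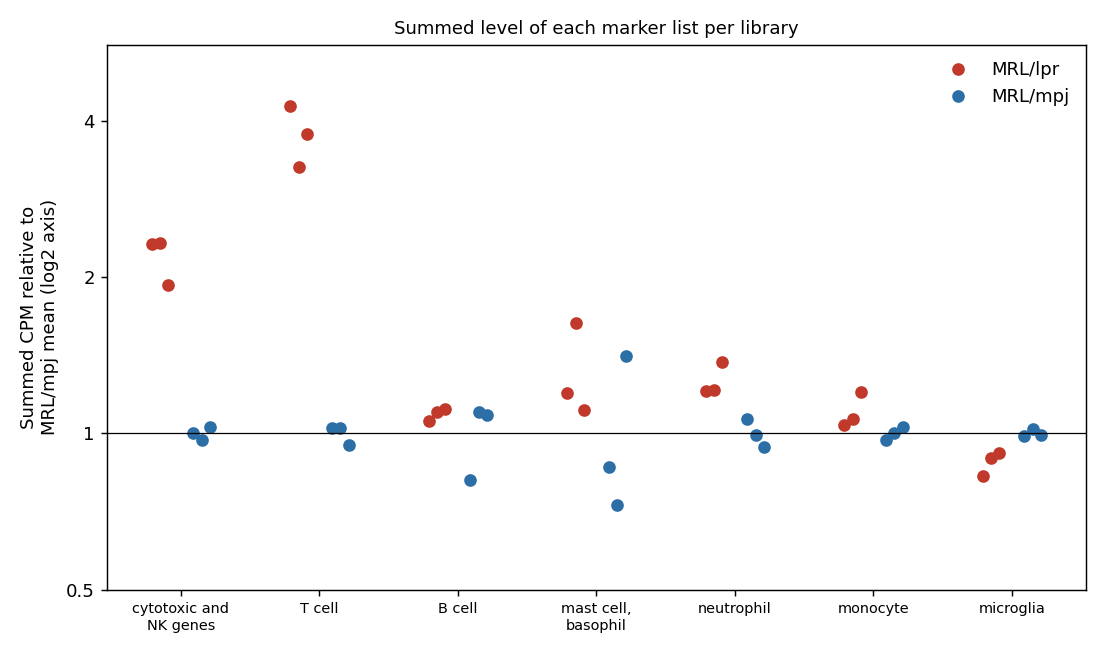
Summed CPM of each marker list in each library, divided by the mean of the 3 MRL/mpj libraries (log2 axis), with MRL/lpr in red and MRL/mpj in blue. The T cell markers average 3.76 and the cytotoxic and NK cell genes 2.19 in MRL/lpr, while the microglia markers lie under 1. Klrd1, which did not pass, supplied between 46.7% and 55.6% of the counts of the 10 genes in each MRL/mpj library.

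The genes with the profile most like the summed level of the 10 genes were found by Pearson's correlation of log2(CPM + 0.5) over the 6 libraries among 19544 other genes tested. They were Zfp36l1, Naalad2, Slfn10-ps, Ighv5-4 and Rel. As 1901 genes had a coefficient above 0.9 and the libraries fall into 2 strains, the ranking describes the split between the strains and no coefficient is given.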

How the data were processed

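The submitters' processing notes give cutadapt 1.9.3, HISAT2 2.0.4, Cufflinks, Cuffdiff 2.2.1 and the build GRCm38, with no role for each. In the study's methods the authors filtered reads with Cutadapt and aligned with HISAT2. The counting tool and annotation are not given in the sources used here. The methods describe purified mRNA and the labels describe ribosomal RNA removal. Raw counts, not normalized, were deposited by the authors for 55401 Ensembl identifiers, beside FPKM values per library. GENCODE M21 (GRCm38) gave symbols for 55141 identifiers, and positions and exons.

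MRL/lpr was set against MRL/mpj in edgeR 4.0.16 (R 4.3.3), using filterByExpr (minimum count 10, minimum total 15), TMM, robust dispersions, and no covariates. The standard error is the log2 fold change divided by the square root of F. Calls needed an adjusted p-value under 0.05, and the study's further minimum of 1 on the log2 scale is given where used. The steps were tested on simulated data. The simulated counts had a smaller spread between libraries than these data and were not in multiples of 4. That test therefore does not check the low counts reported here.

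The named genes are the 10 members, related genes that passed or had the 3 highest mean counts in their list, Fas, and the 5 closest profiles. Other genes were chosen after their values were seen, and some genes that the rule names are not reported here. Members and lists were chosen with earlier results of these data known. Alternatives were DESeq2 1.42.0, other scalings and filters, dispersions without robust fitting, counts divided by 4, a replicate block and each library left out. No pairing by number was seen: the correlations of same-numbered deviations were -0.05, -0.03 and -0.06, and other pairs lay between 0.0007 and 0.047. Deviations from the mean of only 3 libraries per strain cannot exclude a pairing. An exact permutation test over 3 and 3 libraries reaches 0.1 at the lowest.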

Additional observations from a re-analysis of the deposited data

How the results depend on the processing

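The number of the 10 cytotoxic and NK cell genes that rose was 6 in each setting except with counts divided by 4, where it was 5 because Gzmk, Klrb1c and Ncr1 could no longer be tested. Gzma, Gzmb, Prf1, Nkg7 and Eomes passed in all 15 settings, with log2 fold changes of 1.57 to 1.78, 2.40 to 2.75, 2.34 to 3.12, 2.51 to 2.73 and 2.03 to 2.39. No fold change of the 10 genes changed sign. The number that fell was 0 to 1 over the fits without one library, the 1 being Klrb1c without MRL/lpr replicate 1. With one library left out, higher and lower counts ranged from 1 to 3 and 1 to 1 for killer cell receptors, 2 to 3 and 0 to 1 for adaptors and kinases, 4 to 5 and 0 to 1 for granule genes, 3 to 6 and 0 to 1 for lineage factors, 2 to 2 and 0 to 2 for ligands, and 4 to 6 higher for effector cytokines. One granule gene fell with DESeq2, with no filter and with counts divided by 4, and 3 fell with scaling by library size only, which moved the median log2 fold change of all genes by -0.12 and gave 1634 genes higher and 2790 lower in place of 2178 and 1772. Lineage factor genes that rose then numbered 3. The calls of Lyst, Ccl4 and Fyn were then lost, at edgeR adjusted p-values of 0.0663, 0.0818 and 0.112. One lineage factor gene fell with DESeq2 and with counts divided by 4, where 0 killer cell receptors fell. Zeb2 and Il15ra also failed without robust fitting, and Tigit, Fasl, Cd8b1, Trbc1 and Tpsb2 could not be tested with counts divided by 4. With the replicate block, 0 adaptor genes fell and 6 of the 10 members rose, as without it, though no pairing by number was seen. The block ended the calls of Tyrobp, Ikzf3, Il15ra, Il18rap, Trac, Trbc1, Tpsb2, S100a8, Retnlg and Vcan. All genes called numbered 1630, and 1398 to 1650 without one library. The cause of these shifts was not tested. Low counts limit Klrb1c, Ncr1 and Gzmk most.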
